A study of Homo sapiens with 4 samples.

Results

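The 10 genes described here encode parts of mTORC1, the complex built around the growth-controlling kinase MTOR, together with inhibitors, an activator and direct substrates. They were chosen by name, with earlier results of these data known. Every array feature (probe set) whose platform annotation names 1 of the 10 genes alone was used. This gave 15 probe sets for 8 of the 10 genes, out of 22215 probe sets and 11963 named genes on the array. DDIT4, TSC1, MLST8 and EIF4EBP1 had 1 probe set each, TSC2, MTOR and RPS6KB1 had 2 each, and RHEB had 5. AKT1S1, a subunit that restrains mTORC1, and SESN3, a member of the stress-induced sestrin family, are not analysed here because no probe set used here names either alone.

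mTORC1 promotes protein synthesis and growth when amino acids, energy and growth factors are at hand. RHEB, a small GTPase at the lysosome, switches the kinase on in its GTP-bound form, and the TSC1-TSC2 complex turns RHEB off. DDIT4, also called REDD1, is a short-lived protein made under hypoxia, glucocorticoids, energy stress and the ATF4 stress response, and it restrains mTORC1 through the TSC complex. Active mTORC1 phosphorylates the translation repressor 4E-BP1 (EIF4EBP1), which then lets go of the cap-binding protein eIF4E, and the S6 kinase (RPS6KB1). These steps act on proteins and their phosphorylation, which an RNA array does not measure.

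The cells were LNCaP, a human prostate cancer line that responds to androgen. They grew in RPMI-1640 with 10% FBS and were transiently transfected with Lipofectamine, in one group with an expression vector for MED1, a Mediator subunit that bridges transcription factors and RNA polymerase II, and in the other with the empty vector. RNA was taken at 24 hours, with 2 samples in each group, and the labels do not say whether the duplicates were separate cultures, so the spread behind the p-values may be technical. The share of cells that took up the vector is not given, so a small change in all cells and a larger one in some cells cannot be told apart.

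Values are MAS5 signal intensities, which combine the probes of a probe set on a linear scale and have no read depth; precision is limited by the number of arrays. The median signal was 77.0 to 78.4 with the MED1 vector, against 79.6 to 82.7 with the empty vector. Pearson's r between arrays across the 13329 tested probe sets was 0.985 to 0.992. It was 0.9915 for the MED1 pair, 0.9898 for the empty vector pair and 0.9854 to 0.9904 for pairs across the groups. The empty vector arrays were thus no more alike than some pairs across the groups. As a measure of RNA integrity, the actin controls had a 3' over 5' ratio of 9.32 to 9.40 with the MED1 vector, against 8.14 to 9.45 with the empty vector. The GAPDH controls had a ratio of 1.16 to 1.27 over all 4. The 5' end of actin thus read far below its 3' end on every array, while the ends of GAPDH read nearly alike. Together these controls do not show that the RNA was intact. One MED1 probe set read 559 and 807 with the MED1 vector, against 292 and 315 with the empty vector, a log2 fold change of 1.11 ± 0.16 (SE; limma, Benjamini-Hochberg adjusted p = 0.0344), and a brighter one overlapped between the groups (0.09 ± 0.10, adjusted p = 0.83). The first lost its call without empty vector replicate 1 (adjusted p = 0.0716) and without empty vector replicate 2 (0.102). The cells carried the luminal prostate markers: 8 of 10 had a probe set here, their signals ran from 167 to 8663, and their summed signal was 22311 to 23703 with the MED1 vector, against 23158 to 25427 with the empty vector. Markers of leukocytes, endothelium, fibroblasts and basal cells, 14 genes with a probe set, read 156.5 or less on every array by their brightest probe sets.

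Of the 8 regulators measured, DDIT4 was the 1 that passed the test, and it fell in the cells given MED1. A value that did not pass does not show that a gene stayed the same, and DDIT4 was not tested against the other members. Probe sets with a mean signal of at least 32.2, the 40th percentile, were tested, which kept 12 of the 15. Of these 12, 1 passed an adjusted p of 0.05, where 0.308% of all tested probe sets passed in either direction (41 of 13329). The members, and the wider pathway list below, were chosen with earlier results of these data known. Shares and medians set beside those of the whole array therefore describe the members and are no test of them. On 5 of the 12 both MED1 samples lay below both empty vector samples, where 22.6% of all tested probe sets did, and on 3 both lay above, where 17.2% did. The 12 probe sets had a median log2 fold change of 0.01, against -0.02 over all tested probe sets. Judged by the brightest probe set of each gene, the median of the 8 genes was -0.22, against -0.02 over 7959 genes.

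**Figure D1:**
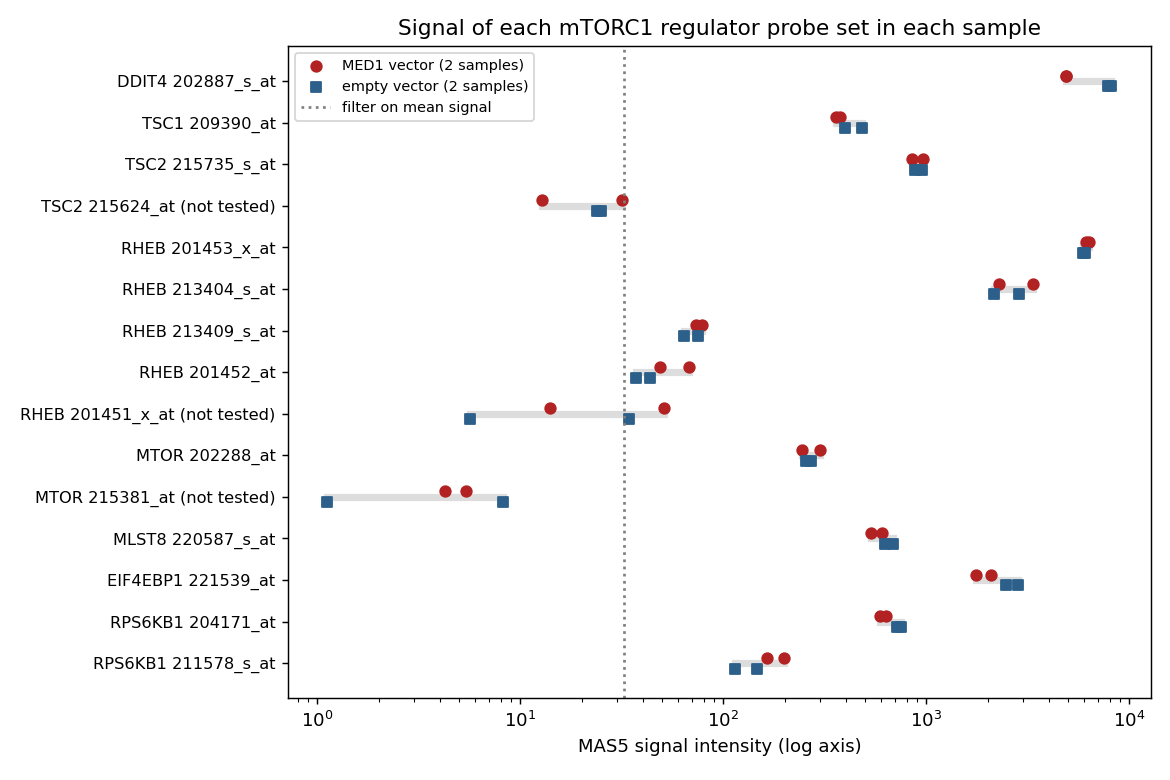
Signal (log axis) of each of the 15 probe sets in each of the 4 samples, with MED1 samples as circles and empty vector samples as squares; the dotted line is the filter at a mean signal of 32.2. The DDIT4 samples separate most clearly, at 4845 and 4873 against 7840 and 8138, and the 3 probe sets left out of the test sit at the dim end.

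Among the inhibitors, DDIT4 came first. Its signal was 4873 and 4845 with the MED1 vector, against 8138 and 7840 with the empty vector. The groups did not overlap, and the gap between them, 2967 signal units, was far wider than the spread within either. The means were 4859 ± 19.3 and 7989 ± 211 (SD, n = 2), which gives a log2 fold change of -0.72 ± 0.09 (SE; 95% interval -0.93 to -0.50), so that DDIT4 RNA fell by 39.1% (limma, Benjamini-Hochberg adjusted p = 0.0169). Of the 7959 genes tested, 56 had a lower fold change than DDIT4 and 17 had a smaller p. The call was not kept without empty vector replicate 1 (log2 fold change -0.69) or without empty vector replicate 2 (-0.74). It was also lost when dim probe sets were kept in the test (limma, adjusted p = 0.175) or with a variance that ignores the signal level (0.286). The fold change stayed between -0.74 and -0.66 under all 14 alternatives. Those that alter only the filter, the variance or the replicate block cannot move it.

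The DDIT4 promoter is shown because DDIT4 is the member that passed the test and its gene is known to answer to several stress pathways. RefSeq (GRCh38.p14) places the 250 bases before the DDIT4 transcription start at chr10:72273674-72273923, plus strand, with 68.8% G or C. Capitals mark ACGTG, the core of the hypoxia response element, and the CCAAT box, which reads ATTGG on this strand.
DDIT4 promoter: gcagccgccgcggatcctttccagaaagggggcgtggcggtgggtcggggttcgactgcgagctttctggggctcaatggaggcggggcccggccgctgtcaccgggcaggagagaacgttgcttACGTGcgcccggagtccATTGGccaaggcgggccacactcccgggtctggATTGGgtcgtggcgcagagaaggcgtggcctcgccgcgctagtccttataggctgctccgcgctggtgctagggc
The ACGTG lies 125 bases before the start, and the pair of CCAAT boxes begin 108 and 75 bases before it. Both strands were searched for 5 motifs in this window and in all 35116 promoters of the table, of which 18.5% held ACGTG, 32.0% held CCAAT, 6.34% held the E-box CACGTG (which contains ACGTG), 3.14% held TGATGNAA, the core of the element bound by ATF4 with C/EBP partners, and 1.65% held TGACGTCA, the cAMP response element. The last 3 do not occur in these 250 bases of DDIT4. Among the 7 members with a promoter in the table, CCAAT occurred in 3, which were DDIT4, MTOR and RHEB. TSC2, which has 2 promoters there, held CACGTG with an overlapping TGATGNAA, and RHEB held ACGTG outside an E-box. A match describes letters in a window and does not show that a factor binds.

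TSC1, which stabilises the TSC complex, read 357 and 374 with the MED1 vector, against 480 and 399 with the empty vector. Both MED1 samples were the lower ones, but the empty vector samples differed from each other by more than the nearest samples of the 2 groups did. The log2 fold change was -0.25 ± 0.13 and did not pass (adjusted p = 0.59; interval -0.54 to 0.04); it was -0.12 without empty vector replicate 1 and -0.38 without empty vector replicate 2. TSC2, the subunit that acts on RHEB, read 957 and 851 with the MED1 vector, against 949 and 878 with the empty vector. These values overlapped, and the log2 fold change of -0.02 ± 0.11 (adjusted p = 0.981) had an interval of -0.25 to 0.22, which leaves room for a change of that size either way; centring each array on its median turned the sign, to 0.04. The other TSC2 probe set was not tested, at 12.8 and 31.5 against 24.9 and 24.0, and its MED1 samples lay on both sides of the empty vector samples.

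RHEB, the activator, was measured by 5 probe sets, and none of the 4 tested passed. Its brightest probe set read 6086 and 6331 with the MED1 vector, against 5910 and 6028 with the empty vector. The MED1 samples were both higher, by a log2 fold change of 0.06 ± 0.09 (adjusted p = 0.896; interval -0.15 to 0.27). This probe set carries the suffix with which Affymetrix marks probes that may also match other transcripts, so its signal may not be RHEB alone. The next one read 3354 and 2275 against 2872 and 2154 and overlapped, with a wider spread within groups than between them (0.15 ± 0.18, adjusted p = 0.848). The remaining tested ones were dim, at 64.1 to 78.5 over the 4 samples for one (0.11 ± 0.21) and at 67.5 and 48.8 against 43.5 and 36.9 for the other (0.39 ± 0.25, adjusted p = 0.661; 0.21 without MED1 replicate 1). The fifth, not tested, ranged from 5.66 to 51.2. All 4 tested values were above 0 and each interval included 0, and the second brightest turned to -0.13 without MED1 replicate 1 and to -0.06 without empty vector replicate 2.

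Neither measured part of the kinase complex passed. MTOR, the kinase, read 301 and 245 with the MED1 vector, against 271 and 255 with the empty vector. The MED1 samples were the highest and the lowest of the 4, and the log2 fold change was 0.04 ± 0.14 (adjusted p = 0.953; interval -0.28 to 0.37). A second MTOR probe set stayed at or under 8.20 on every array and was not tested. MLST8, the subunit that binds and stabilises the MTOR kinase domain, read 605 and 535 with the MED1 vector, against 627 and 684 with the empty vector. Both MED1 samples were lower, by a margin smaller than the spread within either group, and the log2 fold change was -0.20 ± 0.11 (adjusted p = 0.619; interval -0.45 to 0.06), or -0.11 without MED1 replicate 2.

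Of the substrates, EIF4EBP1 had the second lowest value among the members and did not pass. Its signal was 1753 and 2070 with the MED1 vector, against 2457 and 2815 with the empty vector. The groups did not overlap, and the samples within each group differed by about as much as the nearest samples of the 2 groups did. The means were 1912 ± 224 and 2636 ± 253 (SD, n = 2), which gives a log2 fold change of -0.46 ± 0.11 (interval -0.72 to -0.20), with an unadjusted p of 0.00279 and an adjusted p of 0.253 (limma, Benjamini-Hochberg). Of the 7959 genes, 233 had a lower fold change and 94 a smaller p. It passed without MED1 replicate 2 (-0.58, adjusted p = 0.0113), and did not when another array was left out, with -0.34 without MED1 replicate 1 (0.519), -0.56 without empty vector replicate 1 (0.15) and -0.36 for empty vector replicate 2 (0.594). EIF4EBP2, its close relative, read 714 in both MED1 samples, against 683 and 759 with the empty vector (-0.01 ± 0.10, adjusted p = 0.984).

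RPS6KB1, the S6 kinase, gave opposite values on its probe sets. The brighter one read 629 and 588 with the MED1 vector, against 713 and 746 with the empty vector, so that both MED1 samples were lower (log2 fold change -0.26 ± 0.10, unadjusted p = 0.0346, adjusted p = 0.488). The dimmer one read 198 and 164 against 146 and 114, so that both were higher (0.44 ± 0.18, unadjusted p = 0.0386, adjusted p = 0.501; 0.28 without empty vector replicate 2). Neither passed, and the array gives RPS6KB1 no single direction. At an unadjusted p of 0.05, 4 of the 12 member probe sets passed, these and those of DDIT4 and EIF4EBP1, where 9.19% of all tested probe sets did.

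**Figure D2:**
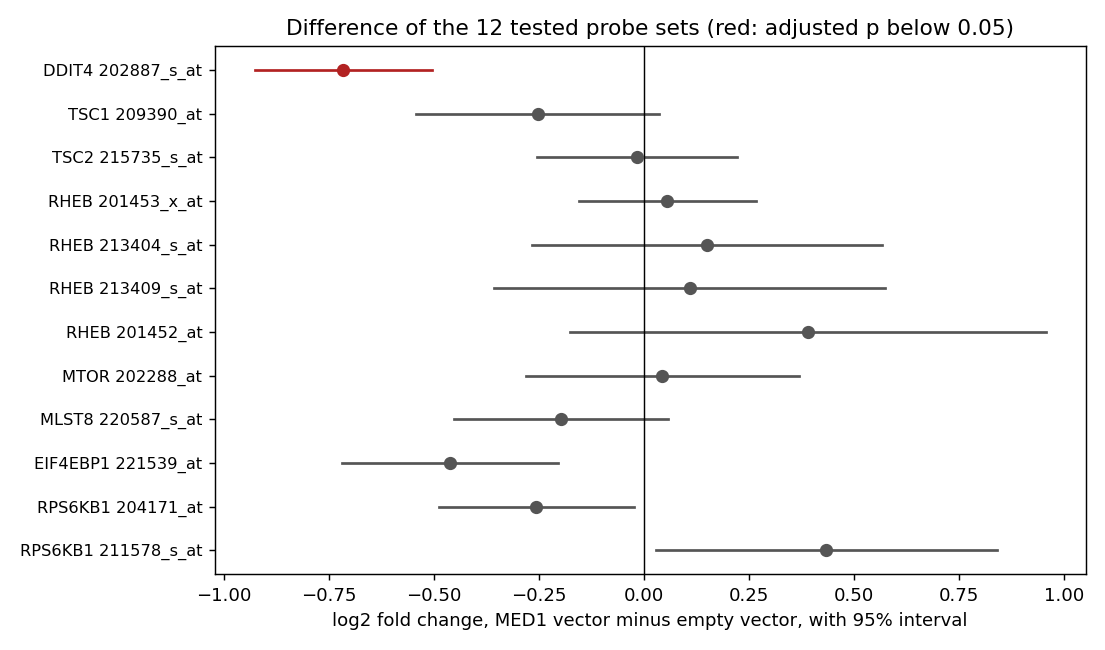
Log2 fold change of the 12 tested probe sets, MED1 vector minus empty vector, with 95% intervals from limma; red marks an adjusted p below 0.05. DDIT4 at -0.72 is the 1 red interval, and the RPS6KB1 probe sets lie on opposite sides of 0.

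The other genes of the pathway were taken from a list of 82, and 57 had a tested probe set. DDIT4L and TBC1D7, listed as relatives of DDIT4 and of the TSC complex, are not analysed here. None of the 57 passed in either direction (limma, Benjamini-Hochberg), where 0.352% of 7959 genes judged by their brightest probe set did. At an unadjusted p of 0.05, 8 of the 57 passed (14.0%), 3 higher and 5 lower, where 9.83% of all genes did. Both MED1 samples were below both empty vector samples for 14 genes (24.6%, where 23.6% of all genes were) and above for 7 (12.3%, where 17.7% were). Their median log2 fold change was -0.04, against -0.02 for all genes. Centring each array on its median moved these medians to 0.02 and 0.03, so the sign of a median this small depends on the scaling.

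Among the partners of MTOR, 5 of 7 were tested. RPTOR and RICTOR are not analysed here because no probe set used here names either alone. DEPTOR, a subunit that inhibits the kinase, read 332 and 308 with the MED1 vector, against 469 and 405 with the empty vector. Both MED1 samples were lower, with a log2 fold change of -0.43 ± 0.13 that did not pass (unadjusted p = 0.00766, adjusted p = 0.335). MAPKAP1, a subunit of the related complex mTORC2, gave 0.17 ± 0.10 (adjusted p = 0.62).

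The amino acid branch brings mTORC1 to the lysosome through the Rag GTPases and their anchor, the Ragulator, and is held back by the GATOR1 complex. Of the Rag and Ragulator genes 8 of 13 were tested. RRAGB, a Rag GTPase, read 110 and 88.8 with the MED1 vector, against 69.4 and 58.8 with the empty vector, so that both MED1 samples were higher at dim signals (0.52 ± 0.21, adjusted p = 0.486). RRAGA gave 0.16 ± 0.09 (adjusted p = 0.619). Of the GATOR complexes and amino acid sensors 10 of 15 were tested. SEH1L, a GATOR2 subunit that also serves the nuclear pore, gave 0.27 ± 0.12 (adjusted p = 0.532), and DEPDC5, a GATOR1 subunit, gave -0.55 ± 0.27 at 43.0 and 73.9 against 74.2 and 110 (adjusted p = 0.589). SESN1, a relative of SESN3, read 438 and 392 against 449 and 440 (-0.10 ± 0.12, adjusted p = 0.838).

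The energy and growth factor branches act through AMPK and AKT. Of the LKB1 and AMPK genes 9 of 10 were tested, and 0 had an adjusted p or an unadjusted p under 0.05 (limma). PRKAB2, a regulatory subunit, read 188 and 182 with the MED1 vector, against 171 and 105 with the empty vector, where 1 empty vector sample stood far below the other (0.42 ± 0.21, adjusted p = 0.59). PRKAA1, a catalytic subunit, overlapped between groups (0.21 ± 0.16). Of the PI3K and AKT genes 7 of 12 were tested. PIK3R1, a regulatory subunit of PI3K, read 1251 and 1254 against 1630 and 1485 on its brightest probe set. Both MED1 samples were lower on all 3 of its probe sets. Their log2 fold changes were -0.31 ± 0.10, -0.39 ± 0.11 and -0.50 ± 0.19, with adjusted p of 0.37, 0.293 and 0.463, and none passed. PDPK1, the kinase that activates AKT and the S6 kinase, gave -0.27 ± 0.11 (adjusted p = 0.476), and -0.08 and 0.10 on its other probe sets.

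Downstream, 9 of 13 genes of translation were tested. EIF4E, the cap-binding protein that EIF4EBP1 holds, read 2072 and 1654 with the MED1 vector, against 1556 and 1421 with the empty vector. All 3 EIF4E probe sets gave values above 0, at 0.31 ± 0.12, 0.40 ± 0.11 and 0.22 ± 0.14, with adjusted p of 0.474, 0.287 and 0.648, and none passed. EIF4B, a target of the S6 kinase that assists the initiation helicase, gave -0.27 ± 0.11 on its brightest probe set (adjusted p = 0.476) and -0.03 and -0.14 on others. Of 10 genes of autophagy, the lysosome and feedback 9 were tested. RB1CC1, a scaffold of the autophagy-starting ULK complex, gave -0.43 ± 0.15 (adjusted p = 0.435), with 1548 and 1111 in the empty vector samples, and 0.03 on a second probe set. ATG13, another subunit of that complex, gave -0.10 ± 0.12 (adjusted p = 0.849).

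**Figure D3:**
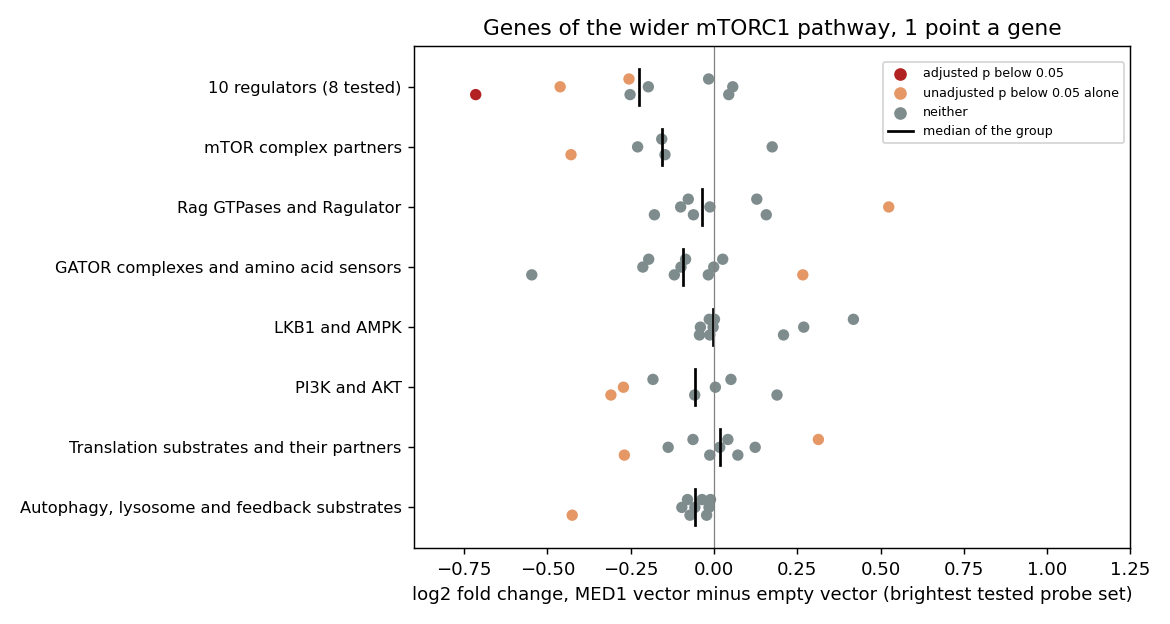
Log2 fold change of the 8 measured regulators and of the 57 tested genes of the wider pathway by role, 1 point a gene on its brightest tested probe set, with the median of each group as a black bar. Red marks an adjusted p below 0.05, reached by DDIT4 alone, and orange an unadjusted p below 0.05, reached by 8 genes of the wider pathway and by EIF4EBP1 and RPS6KB1.

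The genes whose signals ran most like those of DDIT4 over the 4 samples were found by Euclidean distance between log2 signals centred on each gene's mean. Genes picked this way share the pattern of DDIT4 by construction, so their falls are no separate evidence for it. The 5 nearest of the tested genes were CLIC4, a chloride intracellular channel protein (distance 0.058), PCK2, the mitochondrial enzyme that makes phosphoenolpyruvate (0.0685), CEBPG, a partner of ATF4 (0.0702), AMPD3, an AMP deaminase (0.0848), and TMEM267 (0.104). CLIC4 read 637 and 643 with the MED1 vector, against 1102 and 1092 with the empty vector and fell by 0.76 ± 0.10 on the log2 scale (adjusted p = 0.0137). PCK2 read 1079 and 1053 against 1695 and 1705 and fell by 0.67 ± 0.09 (0.0198), and CEBPG read 915 and 916 against 1454 and 1438 and fell by 0.65 ± 0.09 (0.0233; limma, Benjamini-Hochberg). AMPD3, at dim signals of 22.4 and 22.7 against 52.7 and 49.3, and TMEM267, at 429 and 422 against 661 and 688, gave -0.80 ± 0.26 and -0.65 ± 0.10 and did not pass (adjusted p = 0.412 and 0.0502); TMEM267 passed without MED1 replicate 1 (0.0203) and without MED1 replicate 2 (0.0199). As with DDIT4, leaving out empty vector replicate 2 ended the calls of CLIC4 (0.055), PCK2 (0.0979) and CEBPG (0.1001), and leaving out empty vector replicate 1 those of PCK2 (0.0544) and CEBPG (0.0562). In the 250 bases before their starts, CCAAT occurred in 3 of these 5 genes, where 32.0% of all promoters held it. ACGTG occurred in 1 of the 5 (18.5% of all promoters), and CACGTG and TGACGTCA in 0. TGATGNAA occurred in 1 of the 5, where 3.14% of all promoters held it. That gene was CEBPG, where it begins 42 bases before 1 of its 2 listed starts. A gene with several starts had more windows to match in than a single promoter. DDIT4, PCK2 and CEBPG are known from earlier work as genes that the ATF4 stress response can raise, and EIF4EBP1, which did not pass, is another. Whether that response had a part in these values was not tested.

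For EIF4EBP1 the 5 nearest genes were H4C8, CATSPERZ, DNMBP, FZR1 and STX17, at distances of 0.0421 to 0.0593, and none of them passed (adjusted p = 0.406 to 0.588). Like EIF4EBP1, each was lowest in MED1 sample 1 and highest in empty vector sample 2. None of the 5 was among the nearest to DDIT4. With 4 samples, a small distance says little more than that the sizes of the change and of the spread are alike.

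**Figure D4:**
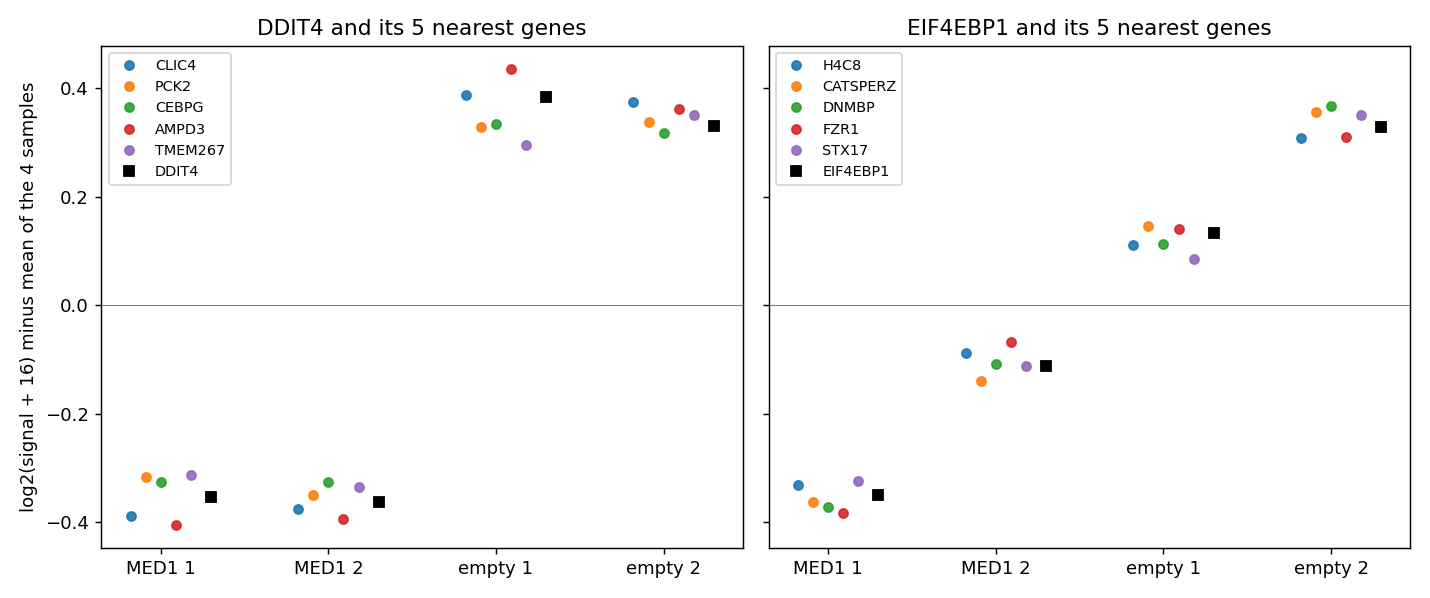
Log2(signal + 16) minus its mean over the 4 samples, for DDIT4 and for EIF4EBP1 (black squares) with the 5 nearest tested genes of each (circles). The DDIT4 group splits into level MED1 samples and level empty vector samples, and in the EIF4EBP1 group the samples of each vector differ from each other too.

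**Figure D5:**
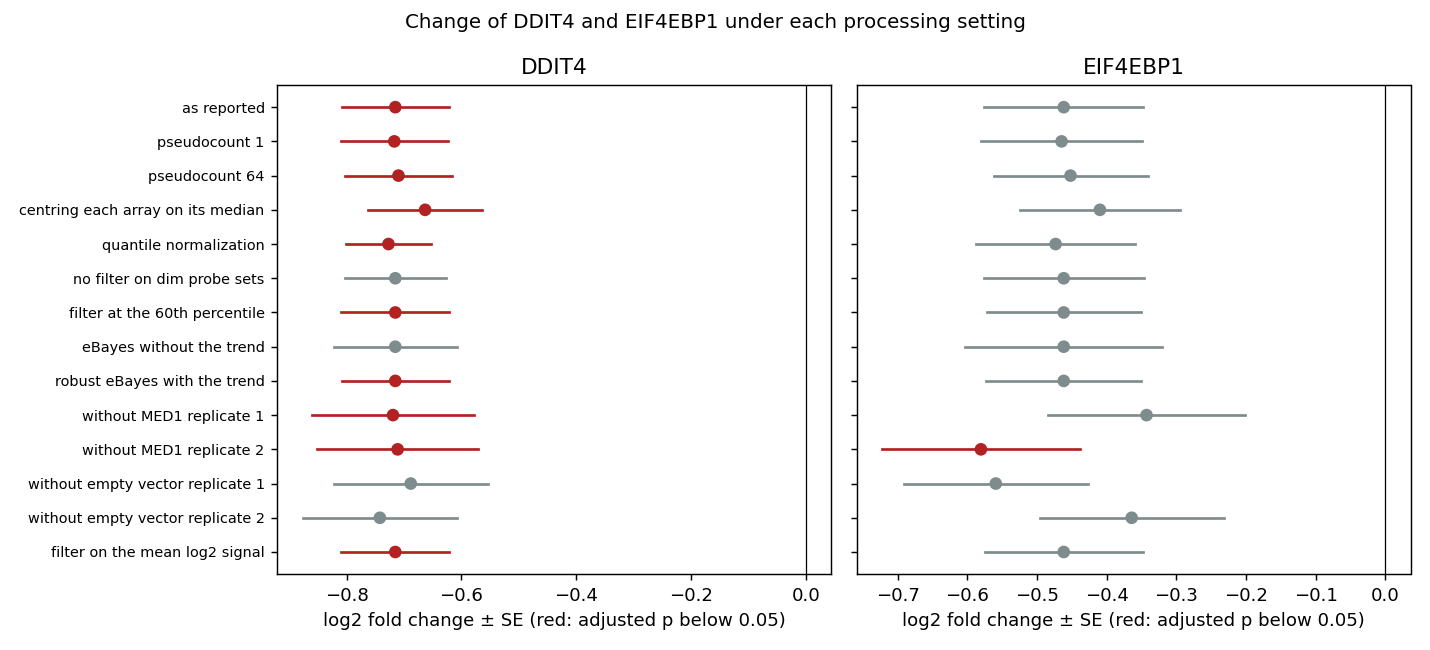
Log2 fold change ± SE of DDIT4 and EIF4EBP1 as reported and under 13 of the 14 alternatives of processing. The fit with replicate numbers is not drawn. Red marks an adjusted p below 0.05. Settings that alter only the filter or the variance cannot move a fold change. DDIT4 stays between -0.74 and -0.66 and loses its call in 4 settings, and EIF4EBP1 lies between -0.58 and -0.34 and, of those drawn, passes without MED1 replicate 2.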

How the data were processed

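The authors deposited MAS5 signal intensities, linear values with 1 number for each probe set on each array; the submitters' processing notes name MAS5 without a version, and no other step is stated. The trimmed mean (2% off each end) was 500.2 throughout, so no scaling was added. Groups came from the titles; the free-text description that puts the MED1 vector in the empty vector samples was set aside. After removal of 62 controls, 19064 of 22215 probe sets named 1 gene, 1043 several and 2108 none; 19052 were updated by Entrez identifier through RefSeq (GRCh38.p14). Signals were taken as log2(value + 16), so fold changes of dim genes are understated. Probe sets under the 40th percentile of mean signal (32.2) were left out (8886), and 13329 were tested with limma 3.58.1 in R 4.3.3 (lmFit, eBayes with an intensity trend, 7.12 prior and 2 residual degrees of freedom), two-sided, with Benjamini-Hochberg adjustment over all of them and a threshold of 0.05. An exact permutation test of 2 samples against 2 cannot go below 0.333. The procedure was tested on simulated data with independent noise drawn from the fit's own variances, which cannot show whether the calls here hold. Named genes were MED1, the members, any passing pathway gene, the 2 of lowest p in each pathway group and the 5 nearest to DDIT4 and to EIF4EBP1; SESN1 and EIF4EBP2, relatives of members, fall outside this rule and were added after their values were seen. Members and lists were chosen with earlier results of these data known. Plots used matplotlib 3.10.9.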

Additional observations from a re-analysis of the deposited data

How the results depend on the processing

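Over all probe sets, 41 passed. The count was 0 when dim probe sets were kept (limma; 22215 tested), 1225 at an unadjusted p of 0.05, 7 without the variance trend and 25 to 215 with 1 array left out, the lone sample being assumed to vary like the other group. Of the members' probe sets 1 passed. That count was 0 with dim probe sets kept (DDIT4 -0.72, adjusted p = 0.175), 0 without the trend (-0.72, 0.286), 0 to 2 with an array left out and 4 at an unadjusted p of 0.05. With an array left out, DDIT4 ranged from -0.742 to -0.688 and EIF4EBP1 from -0.581 to -0.343. Keeping dim probe sets and dropping the trend also ended the calls of MED1 (adjusted p = 0.381 and 0.357), CLIC4 (0.112 and 0.254), PCK2 (0.132 and 0.326) and CEBPG (0.132 and 0.328). The wider pathway had 0 passing genes, and 8 at an unadjusted p of 0.05. The groups share replicate numbers, but 2 pairs whose deviations correlated at 0.12 do not show a pairing; with the replicate block, 230 probe sets passed, 2 of them of members, EIF4EBP1 being the second (-0.46, adjusted p = 0.00842). The sign turned, without a call, for TSC2 (0.0359 with centring, -0.0991 to 0.0671 with an array left out), MTOR (-0.0952 to 0.184) and a RHEB probe set (-0.128 to 0.429). A filter on the mean log2 signal, chosen after seeing the data, gave 39. Beyond the looser threshold, the cause was not tested. No detection calls were used, so dim signals have no known background.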
